A study of Mus musculus with 18 samples.

Results

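3 chemosensory receptor genes were followed in mouse brain: the olfactory receptors Olfr1278 and Olfr1183 and the vomeronasal receptor Vmn1r20. They were chosen by symbol, and all 3 were found among the 51 array features that the deposited brain table pairs with a gene name, of 12439 features in all. The question was how much of each receptor's signal was present in brain and whether it differed between diets.

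The study gavaged male BALB/cOlaHsd mice, 8 weeks old at the start, once a day for 20 days beside standard chow, and measured brain RNA on one-colour Agilent arrays, 1 array per mouse, as the labels number the samples of a group as individuals. Each group held 12 mice, of which those on arrays are a part. ADI mice received 9 pesticides together, each dosed at its acceptable daily intake. PC and PO mice received 30 mg per day of whole-tuber flour from conventionally or organically grown potatoes, PCS and POS mice received flour of such potatoes after storage, and control mice received water. Of 18 labelled arrays, 15 were used: 3 mice in ADI, in PC and in water, and 2 in PO, in PCS and in POS. The replicates are separate animals of one inbred strain, and the tissue was cut from the brain without a region being named, so whether olfactory bulb was included is not known.

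Olfactory receptors are G protein-coupled receptors that detect odorants on the cilia of sensory neurons in the nose, and each mature neuron mostly expresses a single receptor gene. They signal through the G protein alpha subunit Gnal and adenylyl cyclase Adcy3 to open cyclic nucleotide-gated channels. Vmn1r receptors belong to neurons of the vomeronasal organ, where they detect pheromones and signal through Gnai2 and the channel Trpc2. Transcripts of some olfactory receptors are also known from tissues outside the nose, brain among them.

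Olfr1278 (NM_146394, probe A_55_P2083123, feature 7083) and Olfr1183 (NM_146529, probe A_55_P2109434, feature 7824) stand in the authors' nervous system and smell group. Vmn1r20 (NM_001101533, probe A_55_P1958109, feature 19188) stands in their reproductive system group. All 3 accessions matched the same symbol in the RefSeq table of GRCm38.p6. There Olfr1278 lies between Olfr1277 and Olfr1279 in an unbroken run of 37 olfactory receptor genes, and Olfr1183 lies between Olfr1182 and Olfr1184 in a run of 123. Vmn1r20 is the last of 17 vomeronasal type 1 receptor genes in a row, next to Vmn1r19 on one side and the phosphatase gene Ppm1k on the other. The table holds 1110 protein-coding Olfr genes and 230 Vmn1r genes, and the probe sequences were not used here, so binding of a probe to transcripts of a related copy was not tested.

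The regions before Olfr1278 and Vmn1r20 are shown because each gene, of a separate family, was higher in every stored-potato mouse than in every unstored-potato mouse. The same held for Olfr1183 and for 4.69% of all features. The authors listed these genes for their change in PCS and POS on these same arrays, so the shared direction gives no ground for shared regulation. 2 of the 3 receptors matched the promoter table, Olfr1183 not. The sequences are RefSeq's, build GRCm38.p6, at chr2:111292020-111292319 and chr6:57431441-57431740, both on the + strand. Each holds 250 bases before the annotated gene start and 50 after it. In both genes the annotation starts at the ATG, so where transcription begins cannot be read from these windows. Capitals mark that ATG and, before it in Vmn1r20, a match to TAATTG on the opposite strand.
Olfr1278: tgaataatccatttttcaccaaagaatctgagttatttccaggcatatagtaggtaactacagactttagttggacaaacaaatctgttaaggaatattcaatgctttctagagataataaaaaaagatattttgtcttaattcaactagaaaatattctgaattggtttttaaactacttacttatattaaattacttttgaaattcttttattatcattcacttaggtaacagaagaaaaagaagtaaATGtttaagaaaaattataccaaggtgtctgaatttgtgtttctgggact
Vmn1r20: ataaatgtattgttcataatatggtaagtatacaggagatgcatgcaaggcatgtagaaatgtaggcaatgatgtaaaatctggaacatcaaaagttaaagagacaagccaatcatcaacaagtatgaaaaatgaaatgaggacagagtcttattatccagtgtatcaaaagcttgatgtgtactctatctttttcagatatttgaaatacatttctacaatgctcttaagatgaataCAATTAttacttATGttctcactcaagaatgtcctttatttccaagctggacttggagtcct
Both regions are poor in G and C, at 26.3% and 32.3%, against a median of 35.0% over 944 Olfr regions, 36.0% over 205 Vmn1r regions and 52.7% over all 27025. Letters of 3 motifs were searched on both strands. CCCNNGGG is the core of the site bound by the Olf/Ebf factors of olfactory neurons, and TAATTA and TAATTG are homeodomain-type sites. None overlaps another in these windows. Olfr1278 held none of the 3 in its window. Vmn1r20 held the TAATTG match from base -12 before the ATG, and TAATTG occurs in 12.2% of Vmn1r regions, 23.2% of Olfr regions and 8.15% of all regions. CCCNNGGG occurs in 13.4% of all regions, in 3.07% of Olfr regions and in 0.488% of Vmn1r regions, and TAATTA in 5.31%, 18.6% and 7.32%. A match of letters is a description and not a binding site.

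Facts of the arrays bear on every value below. The deposited values are intensities with no scaling between arrays. The 75th percentile of an array lay between 1531 and 1995.5 on the 4 stored-potato arrays (PCS and POS), against 838.5 to 1079 on the 11 others, a ratio of geometric means of 1.70. For this reason the arrays were brought to the same 75th percentile, and logs were taken with a floor of 16. The lowest receptor value after scaling was 83.7. POS replicate 2 correlated with the other arrays used at r = 0.83 to 0.86 over features, where the other 14 correlated among themselves at 0.97 to 0.98. 3 columns were left out. The one labelled PO replicate 2 is, feature by feature, the average of PCS replicate 1 and PO replicate 3, and the third PCS and POS columns have r from -0.19 to -0.15 with the 15 arrays used and 0.95 with each other. The files hold no detection flags, so the level at which a receptor counts as expressed is unknown. In whole tissue, fewer cells that express a gene and less RNA per cell cannot be told apart.

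Vmn1r20 and Olfr1183 had a like shape across diets: higher values in both stored-potato groups, and overlapping ones in ADI, PC, PO and water. The scaled intensity of Olfr1183 was 1836 and 1602 in the PCS mice and 1517 and 2747 in the POS mice. It was 873, 1500.4 and 1073 in the ADI mice, 917, 1394 and 996 in the PC mice and 950.4 and 1069 in the PO mice, against 781, 1212 and 958 in the water mice. All 4 stored-potato mice lay above all 11 others, the nearest being ADI replicate 2 at 1500.4 below POS replicate 1 at 1517. The same held for 1.87% of all features in the upward direction.

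Vmn1r20 had scaled intensities of 1982 and 1843 in the PCS mice and 1799 and 2942 in the POS mice. It had 1104, 1993 and 911 in the ADI mice, 1025, 1632 and 930.5 in the PC mice and 956 and 1052 in the PO mice, against 988, 1699.5 and 900.2 in the water mice. The stored-potato mice lay above every PC and PO mouse, which held for 4.69% of all features, and above every water mouse. Lying above every water mouse held for 13.2% of all features in PCS and for 15.4% in POS. ADI replicate 2 lay above 3 of the stored-potato mice.

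Olfr1278 differed from the others most in a single mouse. Its scaled intensity was 1622 and 1569 in the PCS mice and 1615 and 1981 in the POS mice. It was 1081, 1769 and 1261 in the ADI mice, 899.9, 1505 and 982 in the PC mice and 999 and 903 in the PO mice, against 1102, 83.7 and 1265 in the water mice. ADI replicate 2, at 1769, lay above every stored-potato mouse except POS replicate 2. Control replicate 2, whose intensity before scaling was 62 (848 and 1185 in the other controls), stood far below all other mice. On that same array Olfr1183 and Vmn1r20 were the highest of the controls. The 20 features nearest to Olfr1278 by feature number deviated there by a median of 0.000371 (log2), and the 200 nearest by -0.00243. Array positions were not used, and the cause of the low value was not tested.

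**Figure D1:**
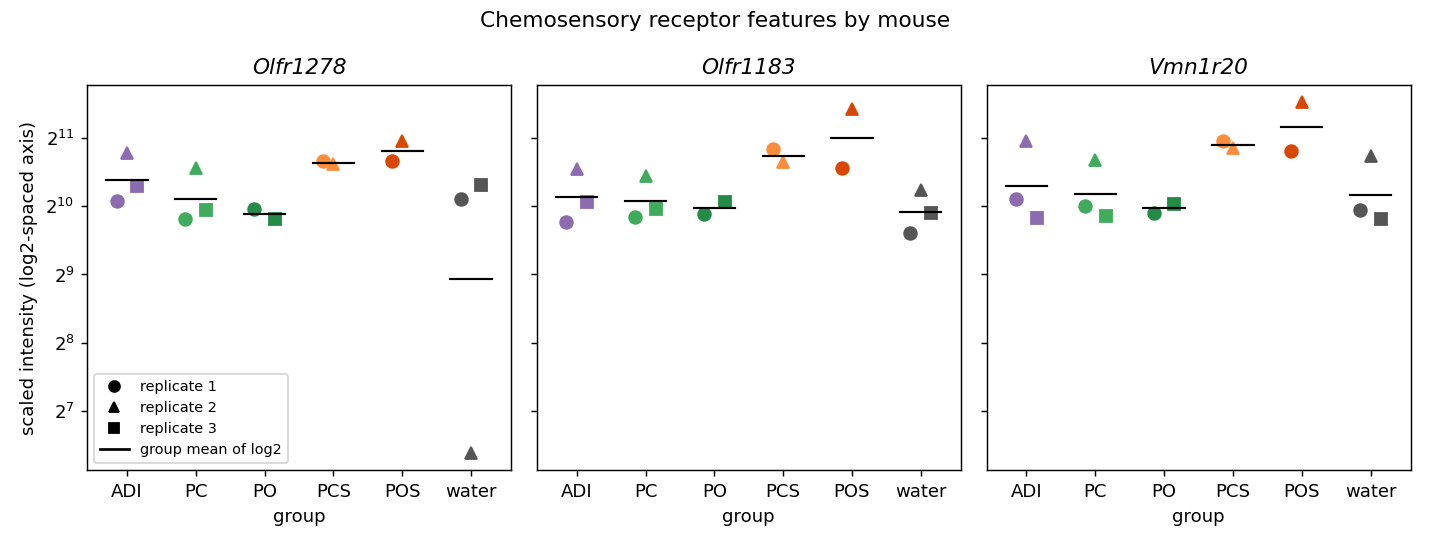
Scaled intensity of each receptor feature in every mouse, on an axis spaced by log2, with groups along the bottom, marker shapes for replicate numbers and a bar at the group mean of log2 values. PCS and POS mice lie above PC and PO mice in all 3 panels, which held for 4.69% of all features. The water mouse at 83.7 in the Olfr1278 panel is the lowest value of all.

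By group mean of log2 values the order for Olfr1183 was POS, PCS, ADI, PC, PO and water. Only PCS (n = 2) and ADI (n = 3) did not overlap among neighbours in that order, with a gap of 0.61. The share of all features with PCS above ADI was not computed. In PCS against water, also 2 mice against 3, such a separation upward held for 13.2% of features. For Vmn1r20 the order was POS, PCS, ADI, PC, water and PO, and every neighbouring pair overlapped. For Olfr1278 it was POS, PCS, ADI, PC, PO and water, again with every neighbouring pair overlapping. Without control replicate 2, water moved to the fourth place for Olfr1278, above PC and PO, and to the sixth for Vmn1r20.

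ADI against water isolates the pesticides from the potato. Olfr1183 averaged 1149 ± 320.4 in ADI mice and 984 ± 217 in water mice (scaled intensity, SD, n = 3 each), and Vmn1r20 averaged 1336 ± 577 and 1196 ± 438. The spread within each group exceeded the differences, and without ADI replicate 2 the log2 change of Olfr1183 was 0.00023 and that of Vmn1r20 -0.19. With all arrays their log2 changes were 0.21 ± 0.27 and 0.14 ± 0.34 (SE), and that of Olfr1278 was 1.46 ± 0.77. Without control replicate 2 the change of Olfr1278 was 0.18 ± 0.26, and the 95% interval with all 15 arrays already ran from -0.23 to 3.14. In the limma fit none passed (adjusted p 1.00 for each, over all features), where 0% of features did (0 of 12439). At an unadjusted p under 0.05, 196 features passed, or 1.58%, and no receptor. ADI and water mice overlapped for all 3 receptors, while 2.32% of features were higher in every ADI mouse.

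With flour from unstored potatoes the receptor values overlapped those of water mice. In PC the log2 changes were 0.16 ± 0.27 for Olfr1183, 0.01 ± 0.34 for Vmn1r20 and 1.17 ± 0.77 for Olfr1278. In PO they were 0.06 ± 0.30, -0.19 ± 0.38 and 0.96 ± 0.86. The values of Olfr1278 rested on the low control: without it they were -0.10 in PC and -0.31 in PO, of opposite sign. The PO value of Vmn1r20 also changed sign without that control, to 0.09. No member passed in either comparison (limma, adjusted p 1.00), where 0% of features did in each. At an unadjusted p under 0.05, 170 features passed in PC (1.37%) and 285 in PO (2.29%), and no receptor. Neither PC nor PO mice stood apart from water for any receptor, while 2.54% and 8.95% of features were higher in every PC or PO mouse. Between the cultivation systems, PC minus PO was 0.10 for Olfr1183 (95% interval -0.56 to 0.77), 0.21 for Vmn1r20 (-0.61 to 1.03) and 0.21 for Olfr1278 (-1.67 to 2.09). All 3 intervals include 0, and the groups overlapped for each receptor, while 8.51% of features were higher in every PC mouse. In limma 0% of features passed, and 169, or 1.36%, had an unadjusted p under 0.05.

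PCS against water addressed stored conventional potatoes. Olfr1183 averaged 1719 ± 165 in PCS mice (SD, n = 2) and 984 ± 217 in water mice (n = 3), a log2 change of 0.82 ± 0.30 (SE). Vmn1r20 averaged 1912 ± 98.2 and 1196 ± 438, a log2 change of 0.74 ± 0.38. Both PCS mice lay above every control for all 3 receptors, which held for 13.2% of all features. Olfr1278 averaged 1596 ± 37.8 and 817 ± 640.3, a log2 change of 1.71 ± 0.86 that was 0.43 ± 0.28 without control replicate 2. No member passed (limma, adjusted p 0.687 for Olfr1183 and 0.751 for Vmn1r20 and Olfr1278), where 0% of features did. At an unadjusted p under 0.05, 829 features passed (6.66%), and of the receptors Olfr1183, at 0.0192 in limma.

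POS against water addressed stored organic potatoes and gave the largest group means of all 3 receptors. Olfr1183 averaged 2132 ± 869.8 in POS mice (SD, n = 2), against 984 ± 217 in water mice (n = 3), and Vmn1r20 averaged 2371 ± 808 against 1196 ± 438. The log2 changes were 1.08 ± 0.30 and 1.00 ± 0.38 (SE). Both POS mice lay above every control for all 3 receptors, which held for 15.4% of all features. Olfr1278 averaged 1798 ± 258 against 817 ± 640.3, a log2 change of 1.87 ± 0.86. Without control replicate 2 the change was 0.60 ± 0.28 for Olfr1278, 1.24 ± 0.33 for Olfr1183 and 1.29 ± 0.38 for Vmn1r20. With all 15 arrays no member passed (limma, adjusted p 0.143, 0.144 and 0.182 for Olfr1183, Vmn1r20 and Olfr1278), where 0% of features did. At an unadjusted p under 0.05, 3451 features passed (27.7%), Olfr1183 and Vmn1r20 among them.

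The POS mice lay apart, replicate 2 being 1.81 times replicate 1 for Olfr1183, 1.63 times for Vmn1r20 and 1.23 times for Olfr1278. On POS replicate 2 the 200 features nearest to Vmn1r20 by number deviated by a median of 0.57 (log2), those around Olfr1183 by 0.15 and those around Olfr1278 by 0. With that local median taken off every value, the POS change of Vmn1r20 was 0.68 ± 0.34 and that of Olfr1183 was 1.01 ± 0.29. Without POS replicate 2 both were 0.65. Without POS replicate 1, so that replicate 2 stood alone, they were 1.51 for Olfr1183 and 1.36 for Vmn1r20. Each of these fits leaves 1 POS mouse, so only the sizes of the changes are given.

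**Figure D2:**
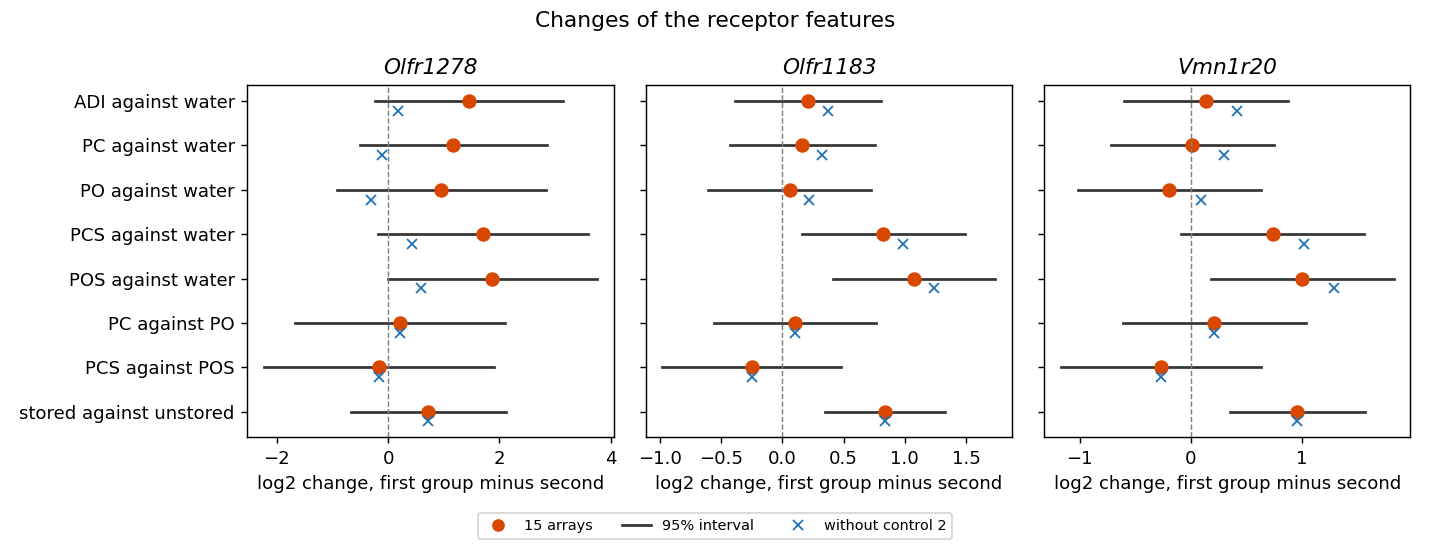
Log2 change of each receptor in 8 comparisons (circles) with its 95% interval (bars), first group minus second, and the same change without control replicate 2 (crosses); each panel has its own axis. For Olfr1278 the changes against water shrink to between -0.31 and 0.60 without that mouse, while the stored against unstored change stays at 0.72.

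Storage itself was addressed by setting PCS and POS against PC and PO, a comparison that does not rest on the water mice. Averaged over cultivation, stored minus unstored was 0.84 ± 0.23 (SE) for Olfr1183, 0.96 ± 0.28 for Vmn1r20 and 0.72 ± 0.64 for Olfr1278 on the log2 scale, or 1.79-fold, 1.95-fold and 1.65-fold. All 4 stored-potato mice lay above all 5 unstored-potato mice for each receptor, which held for 4.69% of all features. A two-sided exact permutation test of the mean log2 value, 4 mice against 5, gave p = 0.0159 for each in these 3 tests, where 126 splits allow no p below 0.00794. In the fit across all features none passed (limma, adjusted p 0.129, 0.137 and 0.503 for Olfr1183, Vmn1r20 and Olfr1278), where 0% of features did. At an unadjusted p under 0.05, 2683 features passed (21.6%), again with Olfr1183 and Vmn1r20 among them. These 3 receptors have a name in the files because the authors listed genes for their change in PCS and POS on these same arrays. The direction is therefore not independent evidence, and neither is the permutation p.

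The SE of Olfr1278 in that fit holds the spread of the water mice. Without control replicate 2 its storage change remained 0.72, with an SE of 0.19 in place of 0.64 and an adjusted p of 0.144 (limma). The storage change was not detectably different between cultivation systems. The difference between the storage change with conventional and with organic potatoes, added after the data were seen, was -0.36 ± 0.45 for Olfr1183, -0.48 ± 0.56 for Vmn1r20 and -0.38 ± 1.28 for Olfr1278 (limma, adjusted p 0.809, 0.790 and 0.934, with 0% of features passing and 4.09% at an unadjusted p under 0.05). PCS minus POS was -0.25 for Olfr1183 (95% interval -0.98 to 0.48), -0.27 for Vmn1r20 (-1.17 to 0.63) and -0.17 for Olfr1278 (-2.22 to 1.89), with 0% of features passing (limma) and 1676, or 13.5%, at an unadjusted p under 0.05. PCS and POS mice overlapped for each receptor, while 10.8% of features were higher in both PCS mice. The share lower in both PCS mice, the direction of the receptor values, was not computed. Without POS replicate 2, PCS minus POS was 0.18 for Olfr1183 and 0.09 for Vmn1r20, of opposite sign.

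Brightness moved with storage. Before scaling, Olfr1183 averaged 2760 ± 673 in PCS and 2925 ± 1119 in POS, against 799 ± 171 in water, or 3.46-fold and 3.66-fold. After scaling these folds were 1.75 and 2.17. Vmn1r20 had 3.21-fold and 3.41-fold before scaling, and 1.60-fold and 1.98-fold after it, and Olfr1278 had 3.65-fold and 3.54-fold before, 1.95-fold and 2.20-fold after. On deposited intensities all 3 receptors were higher on all 4 stored-potato arrays than on the 11 others, as were 52.3% of all features. Without scaling all 3 passed in PCS (limma, adjusted p 0.00167 to 0.0183) and in POS (0.00185 to 0.0218). In the same fit 8756 of all 12439 features were called in PCS and 7412 in POS. The median of all features was itself 0.94 and 0.81 above water on the log2 scale. The stored-potato arrays were the 4 brightest used, so storage and anything else those arrays shared cannot be told apart.

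**Figure D3:**
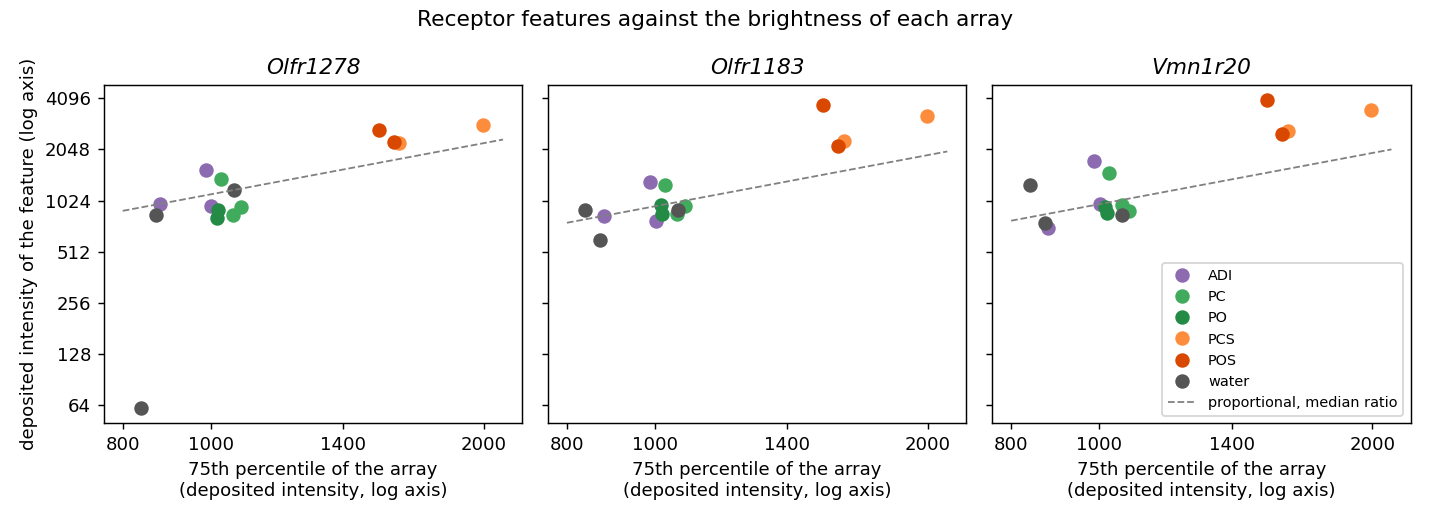
Deposited intensity of each receptor feature against the 75th percentile of its array, both axes logarithmic, 1 point per mouse and coloured by group; the dashed line is proportional to the percentile at the median ratio of the 15 arrays. The 4 stored-potato arrays stand at the right, from 1531 to 1995.5, with every receptor value above the line.

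The 3 receptors can be set beside all other features in the same fit. Their median log2 change was 0.82 in PCS, 1.08 in POS and 0.84 for storage, where the median of all 12439 features was -0.02, 0.04 and -0.01. The change of Olfr1183 exceeded that of 99.0% of features in PCS, 98.6% in POS and 98.5% for storage, and that of Vmn1r20 exceeded 98.6%, 98.1% and 99.3%. The other 48 named genes had median changes of 0.55, 0.80 and 0.67, with 45 of 48 above 0 in each of the 3 comparisons. In ADI and PC the medians of the receptors were 0.21 and 0.16, with 0.04 and 0.03 for the other named genes. The whole list was chosen for its change in PCS and POS on these arrays.

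Replicate 2 stood out within the groups of 3. In ADI the second mouse had 1.98 times the mean of the other mice for Vmn1r20, 1.54 times for Olfr1183 and 1.51 times for Olfr1278. In PC the ratios were 1.67, 1.46 and 1.60. In water they were 1.80 for Vmn1r20 and 1.39 for Olfr1183, while Olfr1278 had its low value of 0.0707 there. Replicate 2 was thus the highest mouse of ADI, of PC and of water for Vmn1r20 and Olfr1183, which held for 14.04% of all features. In the groups of 2 the direction was not shared: for Olfr1183, Vmn1r20 and Olfr1278, replicate 2 deviated from the group mean by 0.43, 0.35 and 0.15 in POS and by -0.098, -0.052 and -0.024 in PCS (log2). Over all features, same-numbered arrays of ADI, PC and water deviated together (r from 0.15 to 0.33). With the replicate number as a block the SE of Vmn1r20 against water was 0.19 in place of 0.34 and that of Olfr1183 was 0.19 in place of 0.27, in ADI and PC alike, and no receptor passed in any of the 8 comparisons. For storage the block gave log2 changes of 0.73 for Olfr1183, 0.68 for Vmn1r20 and 0.97 for Olfr1278, in place of 0.84, 0.96 and 0.72. In PCS it gave 0.79, 0.57 and 1.86 in that order, in place of 0.82, 0.74 and 1.71.

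**Figure D4:**
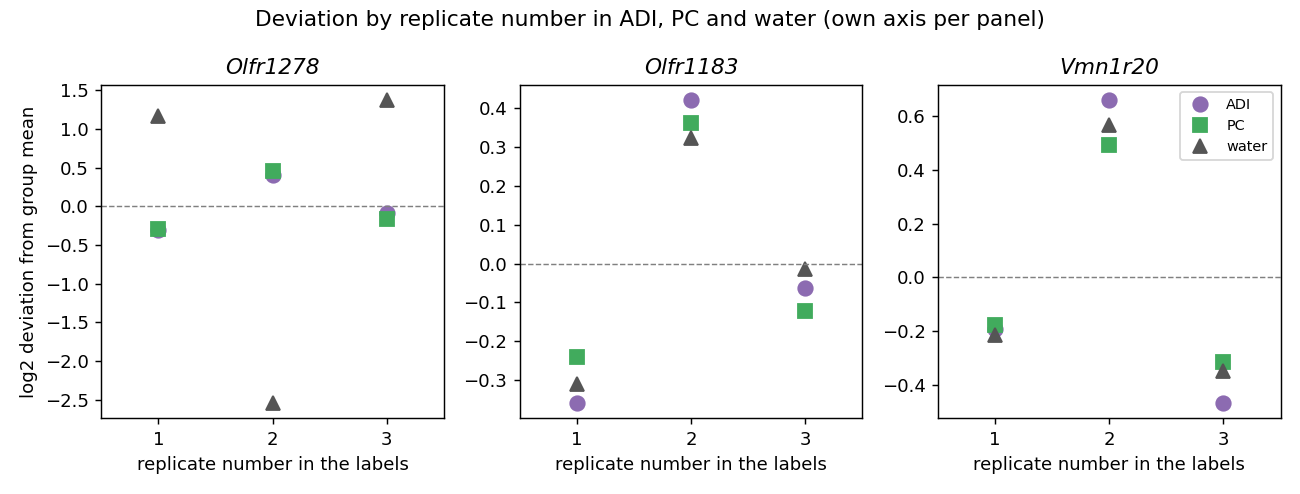
Log2 deviation of each mouse from its group mean, by the replicate number in the labels, for ADI, PC and water; each panel has its own axis. For Olfr1183 and Vmn1r20 the deviations of replicate 2 are positive in all 3 groups, while for Olfr1278 the second water mouse is at -2.55.

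Vmn1r20 and Olfr1183 varied together from mouse to mouse. Over the 15 arrays their log2 values correlated at r = 0.93 (Spearman rho 0.76), and over the 11 arrays outside the stored-potato groups at 0.82. Their difference on the same array, which no scaling between arrays alters, had an SD of 0.21, where the single receptors had SDs of 0.55 and 0.49. Olfr1278 correlated at 0.30 with Olfr1183 and 0.14 with Vmn1r20 over 15 arrays, and at 0.86 with Olfr1183 and 0.88 with Vmn1r20 over 14 arrays without control replicate 2. Over the 10 arrays that leaves outside the stored-potato groups the values were 0.74 and 0.75. The points share array brightness, diet group and replicate number, and these r values only describe the arrays. Over all 15 arrays the SD of Olfr1278 was 1.08, larger than that of 99.0% of features, whose median SD was 0.32.

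Among the 50 other named features, those most like Olfr1183 over 15 arrays were Cpne4, a calcium-dependent phospholipid-binding copine (r = 0.98, rho 0.95), Gatad2a, a protein of the chromatin-remodelling NuRD complex (0.96, 0.89), and Catsperb, an auxiliary subunit of the sperm calcium channel CatSper (0.95, 0.86). Those most like Vmn1r20 were Lmbr1, a multi-pass membrane protein (r = 0.96, rho 0.79), Catsperb (0.95, 0.88) and Pira2, a paired immunoglobulin-like receptor of leukocytes (0.95, 0.88). For Olfr1278 the closest were Mcts1, a translation factor (0.50, 0.64), Btbd10, a BTB domain protein (0.46, 0.36), and Mki67, the proliferation antigen Ki-67 (0.43, 0.82). Without control replicate 2 Olfr1278 was closest to Vmn1r20 (0.88), the deubiquitinase Yod1 (0.88) and Lmbr1 (0.88). Among all features, r above 0.9 was reached with Olfr1183 by 177, with Vmn1r20 by 134 and with Olfr1278 by 5 of 12438, and among the 50 named ones by 21, 11 and 0. The authors listed the named features for their change in PCS and POS on these same arrays. High r among them is therefore not independent evidence of shared expression.

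The rest of the chemosensory system could not be followed by name. None of 34 genes of olfactory and vomeronasal signalling, such as Gnal, Adcy3, Cnga2, Omp, Gnai2 and Trpc2, is among the 51 named features, and there is no chemosensory receptor besides the 3. Of 36 cell type markers of brain, blood and nasal sensory neurons, Vgf, a neuropeptide precursor, is the sole one named. The tissue label could therefore not be checked against defining markers. Vgf had a scaled intensity of 664 ± 93.2 in PCS and 991 ± 404 in POS (SD, n = 2 each), against 496 ± 29.9 in PC (n = 3) and 418 ± 7.31 in PO (n = 2). Its storage change was 0.80 ± 0.18 (SE; limma, adjusted p 0.111), and its part in the receptor values was not tested.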

How the data were processed

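Brain RNA was hybridised to one-colour Agilent arrays (dye Cy3). The deposited values are intensities of 12439 features. They come from Agilent Feature Extraction, per the submitters' processing notes. No version or background correction is stated in the sources used here. Some intensities are at or below 0, the highest is 65535, and arrays differ in brightness, so they were read as unscaled. The log2 fold columns of the authors' table were not used, only its gene names and feature numbers.

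Samples were grouped by their titles. Columns of PO replicate 2, PCS replicate 3 and POS replicate 3 were left out; the label of the last names day 27, not 20. Arrays were scaled to a common 75th percentile (the geometric mean of the 15), values below 16 were set to 16, and log2 was taken. One fit of 6 group means was made with limma 3.58.1 in R 4.3.3 (lmFit, eBayes), with Benjamini-Hochberg adjustment over all features at 0.05, and gave 8 comparisons. Levels are given as mean scaled intensity ± SD, and changes as differences of mean log2 values with the SE of the fit. An exact permutation test set stored against unstored potato. The fit was run on simulated data only as a check of its code. The simulated noise was independent between arrays, so that check does not bear on POS replicate 2, pairing or brightness. The number of arrays limits the precision.

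Same-numbered arrays were checked for pairing by the correlation of their deviations from group means. Over 3 pairs each, r was 0.21 to 0.33 for ADI and water, 0.15 to 0.30 for PC and water and 0.16 to 0.32 for ADI and PC. Over 2 pairs each, r was 0.09 to 0.19 for PO and water and -0.13 to 0.04 for PCS and water. For POS and water it was -0.0014 to 0.011. The block was fitted to all groups as an alternative. Further alternatives changed scaling, floor, filter, arrays and weights, or took off the local median by feature number. Named genes are the 3 members and, for each, the 3 named features with the highest Pearson r over 15 arrays, plus any named feature of the receptor, signalling and marker lists (Vgf). Yod1 comes from the same ranking without control replicate 2, added after its values were seen. Members, lists and tests were chosen with earlier results of these data known.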

Additional observations from a re-analysis of the deposited data

Results flagged for a closer look

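In the column of PO replicate 2, which was not used because it is the average of PCS replicate 1 and PO replicate 3, Olfr1278 had a scaled intensity of 1390 and Olfr1183 of 1588. These exceed the highest water mice, at 1265 and 1212. Vmn1r20 had 1680 there, below its highest water mouse at 1699.5. By its construction the column holds the signal of a stored-potato array.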

How the results depend on the processing

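Values are log2 changes unless called counts of features. Storage, PCS and POS values of the 3 receptors stayed above 0 under all alternatives run except all 18 columns. Without scaling, counts were 8756 in PCS, 7412 in POS and 8165 for storage, and Olfr1278, Olfr1183 and Vmn1r20 had 2.67, 1.79 and 1.70 in PCS and 2.64, 1.84 and 1.77 in POS, with 1.53 for Olfr1183 and 1.65 for Vmn1r20 by storage, all past the threshold; Olfr1278 had 0.036 in PCS minus POS. With all 18 columns, 1 a mean of others and 2 unlike the 15 arrays used, Olfr1278, Olfr1183 and Vmn1r20 had -0.47, -1.18 and -0.69 in PCS and -1.23, -1.08 and -1.05 by storage, also in the permutation test. Olfr1183 and Vmn1r20 then had -0.54 and -1.35 in POS and -0.11 and -0.039 in PC minus PO, and Vmn1r20 0.054 in PO and 0.66 in PCS minus POS. With the replicate number as a block, Vmn1r20 had 0.040 in PO and -0.026 in PC minus PO, Olfr1183 had -0.046 in PC minus PO, and 2 features were called in PCS. The block changed no other call. With the block and without POS replicate 2 the first 3 values were 0.034, -0.020 and -0.026, Olfr1278 had 0.29 in PCS minus POS, and counts were 65 in PCS and 68 for storage.

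A floor of 1 left every count at 0 and every direction as it was. The other settings moved some counts from 0. The count was 1 in POS with a common median, 2 in POS and 1 for storage with quantile normalization, 3 in POS without the dimmest 25% of features, and 2 in POS with the local median removed, where Vmn1r20 had 0.023 in PCS minus POS. A floor of 64 gave 2 in PCS, 5 in POS and 4 for storage, and array weights gave 2 in PC and 5 in PCS. No receptor passed in any of these, and the cause was not tested.

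Leaving out 1 array at a time gave counts of 0 to 1 in PC, 0 to 2 in PO, PCS and PC minus PO, 0 to 5102 in POS, 0 to 3954 in PCS minus POS and 0 to 4547 for storage, the 3 highest without POS replicate 1. Olfr1278 ranged from -0.10 to 1.86 in PC, from -0.31 to 1.65 in PO and from -0.015 to 0.36 in PC minus PO. Olfr1183 ranged from 0.00023 to 0.39 in ADI, -0.019 to 0.33 in PC, -0.096 to 0.22 in PO, -0.077 to 0.22 in PC minus PO, 0.65 to 1.51 in POS, -0.68 to 0.18 in PCS minus POS and 0.63 to 1.05 by storage. Vmn1r20 ranged from -0.19 to 0.42 in ADI, -0.23 to 0.30 in PC, -0.37 to 0.089 in PO, -0.038 to 0.37 in PC minus PO, 0.65 to 1.36 in POS, -0.62 to 0.087 in PCS minus POS and 0.78 to 1.14 by storage. By storage the highest values of both, 1.05 for Olfr1183 and 1.14 for Vmn1r20, came without POS replicate 1, with replicate 2 alone in POS. Where 1 array of a group was left, it was assumed to vary like the other groups.

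The files give no signal over background, and groups of 2 or 3 mice limit the precision: all 95% intervals of the receptors in ADI, PC and PO include 0.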
